A study of Mus musculus with 6 samples.

Results

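Glo1, which encodes glyoxalase 1, and its 3 protein-coding neighbours Btbd9, Dnah8 and Glp1r on mouse chromosome 17 are described here across 6 RNA libraries of the anterior cingulate cortex. The 4 genes were found in the deposited gene count matrix by symbol, 4 of 55401 rows. They had been picked from their measured levels in these same libraries, so their differences between the groups are given as a description, with no test. The groups were 3 libraries from adult mice labelled Ythdf1 knockout (KO) and 3 from adult mice labelled Ythdf1 wild type (WT). Neither the knockout allele nor the strain of either group is described in the labels, which also do not say whether the groups were littermates or whether each replicate was a separate animal. Ythdf1 itself, which encodes a cytoplasmic reader of N6-methyladenosine, stood at 58.3, 62.1 and 57.2 CPM in libraries labelled KO, against 55.8, 53.3 and 49.0 CPM in libraries labelled WT. Here and below, values of single libraries stand in the order of replicates 1, 2 and 3, and CPM is the read count scaled to library size. Ythdf1 mRNA was thus not lower in the libraries labelled KO, and "KO" and "WT" below name the labels of libraries.

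Glyoxalase 1 converts the adduct of glutathione with methylglyoxal, a reactive by-product of glycolysis, and glyoxalase 2 (Hagh) then releases D-lactate and the glutathione. In mice, Glo1 level in the brain has been tied to anxiety-like behaviour, and a segment holding Glo1 with all or part of its neighbours is duplicated in some inbred and outbred stocks and single-copy in others. Btbd9 encodes a BTB-domain adaptor of the CUL3 ubiquitin ligase whose human gene is associated with restless legs syndrome. Dnah8 encodes a heavy chain of axonemal dynein, the motor of flagella and motile cilia, best known from sperm. Glp1r encodes the receptor for glucagon-like peptide-1, a G protein-coupled receptor of pancreatic beta cells and of scattered brain neurons. DNA was not sequenced here, so the copy number and the haplotype of these mice were not measured.

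In GRCm38 coordinates the genes follow each other as Btbd9 (ENSMUSG00000062202, 30215524 to 30576488, minus strand), Glo1 (ENSMUSG00000024026, 30584936 to 30626871, minus strand), Dnah8 (ENSMUSG00000033826, 30624354 to 30877365, plus strand) and Glp1r (ENSMUSG00000024027, 30901817 to 30940791, plus strand). One further sequence bears on how Glo1 is counted. Gm13443 (ENSMUSG00000075391, chromosome 2, 35340409 to 35340963, plus strand) is annotated as a processed pseudogene, and over its whole length of 555 bases it matched the Glo1 coding sequence without a gap at 552 bases (99.46% identity). The stretch runs from the start codon to the stop codon of Glo1 transcript ENSMUST00000167624 and lies in exons between 30612551 and 30594138 on the minus strand of chromosome 17. Reads from it could therefore be assigned to either place.

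The deposited counts summed to 61792250 to 69848835 per library, and all 4 genes passed the filter on low counts in the comparison of 20587 genes. Counts ran from 3946 to 8436 for Btbd9 and Glo1 and from 13 to 305 for Dnah8 and Glp1r, so the level of the last 2 genes in a single library is the less precise. Per kilobase of merged exons, Glo1 was highest with a mean of 8.16 CPM per kilobase over the 6 libraries, ahead of Btbd9 with 3.88, Glp1r with 0.281 and Dnah8 with 0.0839. The lowest Glo1 library (5.60 CPM per kilobase) was above the highest Btbd9 library (4.69), and the lowest Btbd9 library (3.15) was above the highest Glp1r library (0.833). Glp1r (0.107 to 0.833) and Dnah8 (0.00790 to 0.161) overlapped in their ranges. Cortical identity markers were present in both groups: 7 genes of cortical excitatory neurons summed to 2199 to 2467 CPM in the libraries labelled KO and 2355 to 2472 CPM in those labelled WT.

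Glo1 stood at 81.0, 67.7 and 96.4 CPM in libraries labelled KO, against 127, 102 and 119 CPM in libraries labelled WT. Every library labelled KO was below every library labelled WT, and the gap between the highest KO library and the lowest WT library was small beside the spread within either group. The means were 81.7 ± 14.4 CPM in the libraries labelled KO and 116 ± 12.8 CPM in those labelled WT (SD, n = 3 each), a log2 fold change of -0.50 with a standard error (SE) of 0.12. Glo1 was the 1 gene of the 4 whose groups did not overlap. Of all tested genes, 5.16% had every KO library below every WT library, 5.84% the reverse and 11% either. The ratio of the highest to the lowest library was 1.87 for Glo1, a range reached by 1.72% of the 10117 genes averaging 10 CPM or more and by 11.8% of the 15596 averaging 1 CPM or more. The summed CPM of 4 meningeal markers (Col1a1, Col1a2, Dcn and Ogn) ranked the 6 libraries in the same order as Glo1, with 32.8, 30.3 and 38.5 CPM in libraries labelled KO, against 78.5, 39.1 and 58.6 CPM in libraries labelled WT. No other marker list, all given below, ranked the libraries in that order, so the match is picked from several lists. The part of the meningeal markers in the Glo1 result was not tested.

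The copy Gm13443, looked up after the Glo1 values were seen, varied far more. It had 37, 36 and 420 counts in libraries labelled KO, against 900, 528 and 855 counts in libraries labelled WT, or 0.525, 0.587 and 6.67 CPM against 13.5, 8.08 and 12.8 CPM. KO replicates 1 and 2 were thus close to 0, KO replicate 3 was just below the lowest WT library, and the groups did not overlap. Means were 2.59 ± 3.53 CPM in the libraries labelled KO and 11.5 ± 2.96 CPM in those labelled WT (SD, n = 3 each). The log2 fold change of -2.15 (SE 0.80) became -4.37 without KO replicate 3, and it is given with no test because the gene was chosen after its values were seen. Among the counts of Glo1 and Gm13443 together, Gm13443 held 0.644%, 0.859% and 6.47% in libraries labelled KO and 9.64%, 7.37% and 9.75% in libraries labelled WT. Summing both genes gave 81.6, 68.3 and 103 CPM in libraries labelled KO, against 140.2, 109.8 and 132 CPM in libraries labelled WT. The summed log2 fold change was -0.59 (SE 0.14), a sum of 2 genes that were each lower in the libraries labelled KO. Which place a read of the shared stretch came from cannot be told from gene totals.

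**Figure D1:**
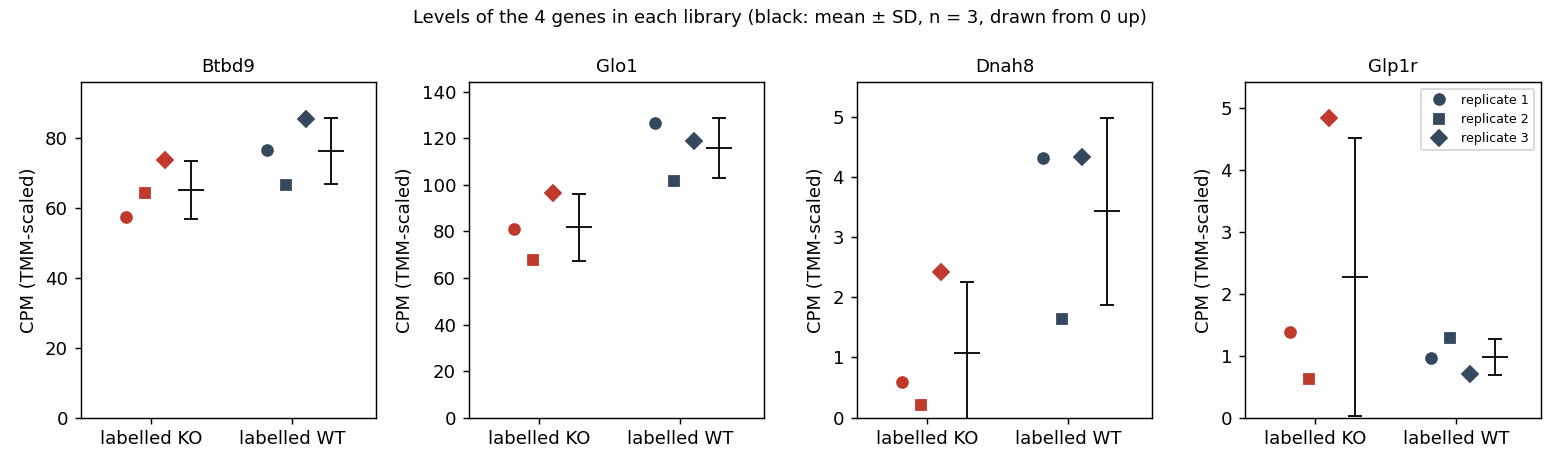
CPM of Btbd9, Glo1, Dnah8 and Glp1r (vertical axes, linear, from 0) in each library labelled KO and labelled WT. Coloured points are replicates 1 to 3 and black bars the mean ± SD, drawn from 0 up. Only Glo1 has all KO points (67.7 to 96.4 CPM) below all WT points (102 to 127 CPM), and KO replicate 3 stands above the other KO points in every panel.

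Dnah8 showed the same ranking of libraries as Glo1 apart from the position of KO replicate 3 and the order of WT replicates 1 and 3. Its counts were 42, 13 and 152 in libraries labelled KO, against 287, 107 and 288 in libraries labelled WT. That is 0.596, 0.212 and 2.41 CPM in the libraries labelled KO, against 4.31, 1.64 and 4.33 CPM in those labelled WT. The groups overlapped, since KO replicate 3 lay above WT replicate 2. The means were 1.07 ± 1.18 CPM in the libraries labelled KO and 3.43 ± 1.55 CPM in those labelled WT (SD, n = 3 each). This gave a log2 fold change of -1.67 (SE 0.71), and without KO replicate 3 it was -3.07. The highest library held 20.4 times the lowest, a range reached by 4.24% of all tested genes. Dnah8 shares 207 exon bases with the noncoding gene 1700097N02Rik and 443 with the antisense gene AC165951.2, both on the opposite strand.

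Btbd9, at the other end of the segment, differed less. It stood at 57.3, 64.3 and 73.7 CPM in libraries labelled KO, against 76.5, 66.5 and 85.3 CPM in libraries labelled WT. KO replicate 3 was above WT replicate 2, so the groups overlapped. The means were 65.1 ± 8.21 CPM in the libraries labelled KO and 76.1 ± 9.43 CPM in those labelled WT (SD, n = 3 each), with a log2 fold change of -0.23 (SE 0.11). Its highest library held 1.49 times its lowest, a range reached by 6.31% of the genes averaging 10 CPM or more. The summed CPM of 3 endothelial markers (Cldn5, Flt1 and Pecam1) ranked the 6 libraries in the same order as Btbd9, with 72.6, 73.7 and 98.0 CPM in libraries labelled KO, against 109, 83.8 and 119 CPM in libraries labelled WT. This match, too, is picked from several lists, and no other marker list gave that order. The part of the endothelial markers in the Btbd9 result was not tested. From low to high the libraries ran KO 1, KO 2, WT 2, KO 3, WT 1, WT 3 for Btbd9, and KO 2, KO 1, WT 2, KO 3, WT 1, WT 3 for Dnah8.

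Glp1r went against the other 3 genes. It had 1.38, 0.619 and 4.84 CPM in libraries labelled KO, against 0.961, 1.29 and 0.706 CPM in libraries labelled WT. KO replicate 3 was far above the other 5 libraries, which lay together between 0.619 and 1.38 CPM. The means of 2.28 ± 2.25 CPM in the libraries labelled KO and 0.985 ± 0.291 CPM in those labelled WT (SD, n = 3 each) gave a log2 fold change of 1.21 (SE 0.63). Without KO replicate 3 it was 0.021, so the higher mean rested on that library alone. The highest library held 7.82 times the lowest, a range reached by 5.86% of tested genes.

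As a description over the 6 libraries, the log2 CPM of Glo1 and Dnah8 had a Pearson r of 0.97 and a Spearman rho of 0.89. Btbd9 had an r of 0.77 with Glo1 and of 0.81 with Dnah8. Glp1r had an r of 0.05 with Glo1, 0.23 with Dnah8 and -0.05 with Btbd9. After each group's mean was subtracted, Glo1 and Dnah8 had an r of 0.98 and Btbd9 had one of 0.60 with Glo1 and 0.67 with Dnah8. Glp1r then had an r of 0.70 with Glo1, 0.77 with Dnah8 and 0.25 with Btbd9. In the libraries labelled KO it ranked the replicates as Glo1 and Dnah8 did, with KO replicate 3 highest at 4.84 CPM. In the libraries labelled WT it did not, since WT replicate 2 was highest for Glp1r (1.29 CPM) and lowest for Glo1 and Dnah8. The points share their libraries, and 3 of the 6 carry each label, so these values are not evidence of a common cause. In bulk tissue, fewer cells of a type and less RNA per cell cannot be told apart.

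Among genes of at least 1 CPM in the segment or within 1 Mb of it, the noncoding gene AC165951.1 ranged most widely between libraries. AC165951.1 (ENSMUSG00000117786, 30920338 to 30963220, minus strand) is an antisense RNA gene that begins beyond Glp1r, runs into it on the opposite strand and shares no exon base with it. It had 0, 4 and 434 counts in libraries labelled KO, against 648, 347 and 853 counts in libraries labelled WT. As CPM this was 0, 0.0652 and 6.89 in the libraries labelled KO, against 9.73, 5.31 and 12.8 in those labelled WT. KO replicates 1 and 2 were at or near 0 while KO replicate 3 lay above WT replicate 2, so the groups overlapped. The log2 fold change was -2.01 (SE 1.24; edgeR's quasi-likelihood test, Benjamini-Hochberg adjusted p = 0.957). Without KO replicate 3, the KO library that held 434 counts against 0 and 4, it was -8.17 with an edgeR adjusted p of 0.0416. Every other alternative setting gave an adjusted p of at least 0.750 by its own test (0.750 for edgeR with no filter). Over the 14 alternative settings the log2 fold change of AC165951.1 ran from -8.17 to -1.41. Its order of libraries was that of Btbd9 (Spearman rho 1 over 6 libraries) and of the summed endothelial markers, and its r with Gm13443 was 0.99.

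AC174471.1, looked at after its values were seen, is a noncoding transcript whose first exon lies within the last exon of AC165951.1 and shares 246 bases with it. Its other exons lie within Btbd9, where 1255 exon bases are shared with that gene on the same strand, so its span crosses Dnah8 and Glo1. It had 0 counts in all 3 libraries labelled KO, against 83, 35 and 0 counts in libraries labelled WT. Taken over each group and set against a floor of 3 counts, it was at least 38.6-fold lower in the libraries labelled KO. WT replicate 3 was at 0 too, so this fold rests on WT replicates 1 and 2. AC174471.1 has 1528 exon bases in all, so most of its reads could also be assigned to Btbd9 or AC165951.1. It did not pass the filter on low counts for edgeR, and DESeq2 did not call it. AC165962.1, an antisense gene that shares 189 exon bases with Btbd9, had no such split: it stood at 6.60, 5.31 and 4.19 CPM in libraries labelled KO, against 6.97, 5.70 and 5.55 CPM in libraries labelled WT (log2 fold change -0.18, SE 0.19, edgeR adjusted p = 0.975).

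The 14 remaining genes of the segment, all noncoding and under 1 CPM on average, summed to 56, 23 and 47 counts in libraries labelled KO, against 211, 80 and 60 counts in libraries labelled WT. AC174471.1 is among these 14. Of the 14 genes, 12 had a count in any library. Counts were 0 in all libraries labelled KO and above 0 in at least 1 library labelled WT for 5 of these 12. The reverse held for 1 gene, Gm24661, with 2 counts in KO replicate 3. Of the 5, AC174471.1 shares 1255 exon bases with Btbd9, and AC165951.2 shares 443 with Dnah8 on the opposite strand. AC165962.2 had 15 counts, all in WT replicate 1. The 5 genes are thus not 5 independent observations. Of all 16935 genes under 1 CPM with any count, 14.6% showed the first pattern and 15.1% the reverse. At such counts a 0 does not show that a transcript is absent. Low noncoding genes outside the segment, before Btbd9, could split in the same way. AC151294.1 had 0, 0 and 5 counts in libraries labelled KO, against 11, 6 and 18 in libraries labelled WT. AC162182.1 had 0, 0 and 8 against 22, 8 and 26. Gm26885, also outside, did not split (35, 33 and 25 against 56, 15 and 27), nor did AC113540.1 inside (47, 23 and 6 against 59, 8 and 11).

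**Figure D2:**
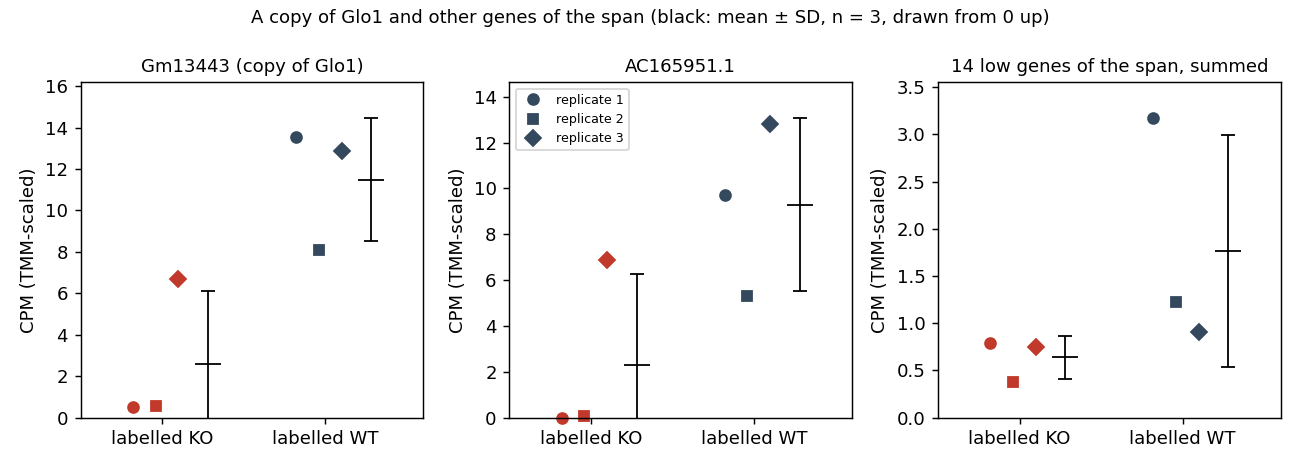
CPM (vertical axes, linear, from 0) of the Glo1 copy Gm13443, of AC165951.1 and of the 14 low genes of the segment summed, in each library labelled KO and labelled WT, with the mean ± SD in black, drawn from 0 up. For Gm13443 and AC165951.1, KO replicates 1 and 2 lie at 0 to 0.587 CPM and the other 4 libraries at 5.31 to 13.5 CPM.

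The authors' deposited table of transcripts that differed between the groups holds 1 transcript each of Btbd9 and Glo1 and none of Dnah8 or Glp1r. Its FPKM values are fragments scaled to transcript length and to library size. In the authors' deposited table the Btbd9 transcript ENSMUST00000236233, a processed transcript of 7 exons from 30459529 to 30576197, was listed at 0 FPKM in all 3 libraries labelled KO, against 0.502, 0.0127 and 0.467 FPKM in libraries labelled WT. WT replicate 2 was thus close to the KO level, and the authors' deposited table gives this transcript a q-value of 0.00407. It lies within the span of AC174471.1, which shares 1255 exon bases with Btbd9 on the same strand. The zeros of this transcript and of AC174471.1 may therefore not be separate results. How reads were divided between the 2 annotations was not tested. The Glo1 transcript in the authors' deposited table is ENSMUST00000236995, annotated as a target of nonsense-mediated decay, with 8 exons from 30592867 to 30612597. It was listed at 0.0513, 0.0866 and 0 FPKM in libraries labelled KO, against 0.401, 0.457 and 0.483 FPKM in libraries labelled WT. All libraries labelled KO were below all labelled WT for this minor transcript, to which the authors' deposited table gives a q-value of 0.00724. These values come from the contrast in which the genes were chosen and are not independent of the gene counts.

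**Figure D3:**
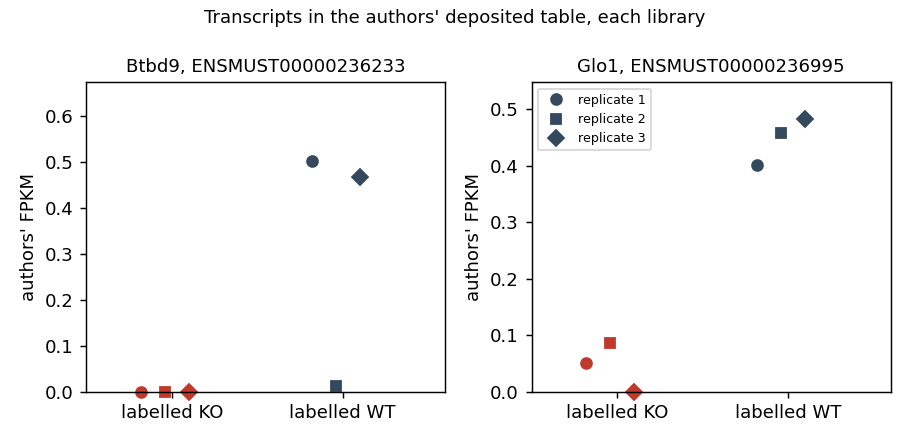
FPKM from the authors' deposited table (vertical axes, linear, from 0) of the listed Btbd9 and Glo1 transcripts in each library labelled KO and labelled WT, replicates 1 to 3 by symbol. The Btbd9 transcript is at 0 in every KO library, and the Glo1 transcript lies at 0 to 0.0866 FPKM in KO libraries and 0.401 to 0.483 FPKM in WT libraries.

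The difference was then followed outward from the segment. Within 1 Mb on either side of it, 35 genes were tested. Their median log2 fold change was -0.04 (13 above 0 and 22 below), beside -0.0006 over all tested genes. The edgeR test called 0 of the 35 (0% of all tested genes were called; 4 of the 35, and 5.26% of all tested genes, had an unadjusted p under 0.05). By DESeq2, too, 0 of the 35 were called (0.132% of all its genes). The 24 protein-coding genes among the 35 split into 11 higher and 13 lower.

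Zfand3, the nearest gene of at least 1 CPM before Btbd9, encodes a zinc finger protein and stood at 59.1 ± 3.92 CPM in the libraries labelled KO and 63.4 ± 4.14 CPM in those labelled WT (SD, n = 3 each; log2 fold change -0.10, SE 0.071, edgeR adjusted p = 0.966). Abcg1, a sterol transporter and the nearest gene of at least 1 CPM beyond Glp1r, stood at 55.1 ± 2.46 CPM in the libraries labelled KO and 58.8 ± 3.46 CPM in those labelled WT (log2 fold change -0.09, SE 0.064, edgeR adjusted p = 0.966). Farther out, Mdga1, an adhesion protein of the neuronal surface, had a log2 fold change of 0.12, Ccdc167 one of -0.32, the ciliary gene Rsph1 one of -0.09 and the sugar phosphate exchanger Slc37a1 one of 0.11. None of these 4 passed the edgeR test. The widest-ranging outer genes of at least 1 CPM were Pi16 and AC154652.2. Pi16, which encodes a peptidase inhibitor, was at 0.625, 0.522 and 1.06 CPM in libraries labelled KO, against 1.58, 1.36 and 1.70 CPM in libraries labelled WT, and its log2 fold change was -1.07 (SE 0.33, edgeR adjusted p = 0.881). AC154652.2, a pseudogene that shares 964 exon bases with Slc37a1 on the opposite strand, had a log2 fold change of -0.55 (SE 0.34, edgeR adjusted p = 0.956).

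Of 537 transcripts in the authors' deposited table, 6 belong to genes within this window. Besides those of Btbd9 and Glo1 these are 2 of Zfand3, 1 of Cbs and 1 of Mtch1. For the coding Zfand3 transcript ENSMUST00000057897 the authors' deposited table gives a KO over WT ratio of 0.473, or -1.08 on the log2 scale. The other Zfand3 transcript (-1.66 on the log2 scale) and that of Cbs (-1.41) were also lower in the authors' deposited table. The Mtch1 transcript ENSMUST00000234129 went the other way in the authors' deposited table, at 0.560, 1.28 and 0.611 FPKM in libraries labelled KO, and was listed at 0 in all 3 libraries labelled WT. Over the gene as a whole the counts of Zfand3 overlapped between the groups.

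**Figure D4:**
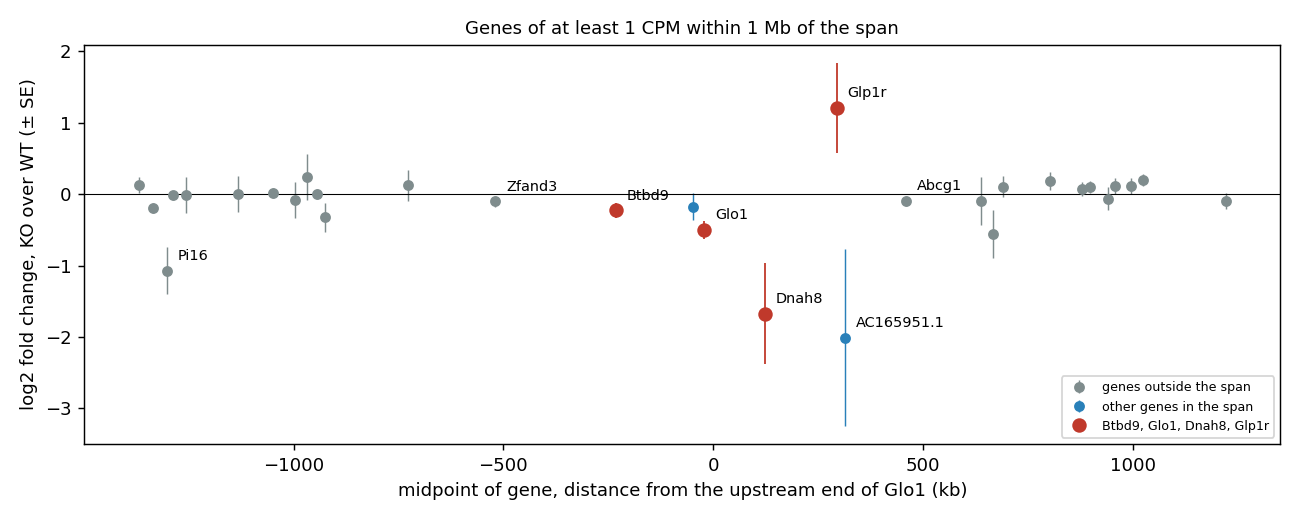
Log2 fold change (vertical axis, libraries labelled KO over labelled WT, bars ± SE) of genes averaging 1 CPM or more, by the distance in kilobases from the upstream end of Glo1 to the gene's midpoint. Btbd9, Glo1 and Dnah8 lie at -0.23, -0.50 and -1.67 and Glp1r at 1.21, between Zfand3 at -0.10 and Abcg1 at -0.09.

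The promoters of Glo1 and Dnah8, which varied together, are shown from RefSeq (GRCm38.p6), from 250 bases before the start to 50 after it, as 300 bases each, 5′ to 3′ on the gene's strand. Capitals mark matches on either strand to the GC box GGGCGG, the CCAAT box CCAAT, the TATA box TATAAA and the antioxidant response element TGACNNNGC. Matches to the GC box may overlap each other. The table of RefSeq promoters used here was matched for Glo1, Dnah8 and Glp1r, 3 of the 4 genes.
Glo1, chr17:30612610-30612909, minus strand: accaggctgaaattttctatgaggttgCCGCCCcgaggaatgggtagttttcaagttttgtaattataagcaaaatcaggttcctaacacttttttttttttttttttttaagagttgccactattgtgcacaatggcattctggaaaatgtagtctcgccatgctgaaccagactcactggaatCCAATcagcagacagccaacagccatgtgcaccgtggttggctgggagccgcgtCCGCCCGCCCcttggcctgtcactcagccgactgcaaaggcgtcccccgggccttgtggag
Dnah8, chr17:30626686-30626985, plus strand: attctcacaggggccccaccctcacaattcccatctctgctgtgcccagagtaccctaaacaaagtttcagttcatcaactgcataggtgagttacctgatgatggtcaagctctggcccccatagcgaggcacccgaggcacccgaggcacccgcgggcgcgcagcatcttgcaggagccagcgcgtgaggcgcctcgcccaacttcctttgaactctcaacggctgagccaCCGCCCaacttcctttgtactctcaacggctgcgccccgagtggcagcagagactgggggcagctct

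The Glo1 window held 3 GC boxes and 1 CCAAT box, and the Dnah8 window 1 GC box. Of 32851 RefSeq promoter windows of the same length, 35.7% held a GC box and 37.4% a CCAAT box. TATAAA, found in 13.6% of windows, and TGACNNNGC, found in 12.4%, were in neither. The 2 windows shared the GC box alone, a motif common to many promoters. The Glp1r window, not printed here, also held 3 GC boxes and no match to the other motifs.

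The counts of calls in the gene lists that follow stand against a background of 0% of all tested genes called by edgeR, 0.132% called by DESeq2 and 5.26% with an unadjusted p under 0.05. An edgeR count of 0 is thus no different from that of all genes. Hagh, glyoxalase 2, stood at 39.5 ± 2.46 CPM in the libraries labelled KO and 39.7 ± 2.93 CPM in those labelled WT (SD, n = 3 each; log2 fold change -0.01, SE 0.077, edgeR adjusted p = 0.998). Glod4, a protein with a glyoxalase domain, had a log2 fold change of 0.13 (SE 0.079) and Park7, the Parkinson's disease protein DJ-1, one of 0.13 (SE 0.095), and neither passed (edgeR adjusted p = 0.957 and 0.969). Ager, the receptor for advanced glycation end products, had 9, 19 and 0 counts in libraries labelled KO and 0, 13 and 0 counts in libraries labelled WT, too few to be tested. The median log2 fold change of 17 tested genes of methylglyoxal handling was 0.02, with 10 above 0 and 7 below. The edgeR test and DESeq2 called 0 of the 17, and 3 had an unadjusted p under 0.05, beside 5.26% of all tested genes. The smallest p values were those of Ldhd, the D-lactate dehydrogenase that uses the pathway's product, at 13.2 ± 1.99 CPM in the libraries labelled KO and 17.7 ± 3.02 CPM in those labelled WT (log2 fold change -0.43, SE 0.15, edgeR adjusted p = 0.881), and of Fn3k, fructosamine 3-kinase (log2 fold change 0.28, SE 0.11, edgeR adjusted p = 0.917).

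Glutathione genes, which supply the cofactor of glyoxalase 1, had a median log2 fold change of 0.06 over 24 tested (15 above 0 and 9 below), which was 0.0078 without KO replicate 1. The edgeR test and DESeq2 called 0 of the 24, and 5 had an unadjusted p under 0.05, beside the same 5.26%. Slc7a11, the cystine importer, had a log2 fold change of -0.34 (SE 0.12, edgeR adjusted p = 0.892) and Gstp1, a glutathione S-transferase, one of 0.19 (SE 0.069, edgeR adjusted p = 0.895).

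Cul3, the ligase scaffold that BTB adaptors bind, stood at 176 ± 7.85 CPM in the libraries labelled KO and 172 ± 4.00 CPM in those labelled WT (SD, n = 3 each; edgeR adjusted p = 0.975). Tfrc, the transferrin receptor, had a log2 fold change of 0.08 (SE 0.084, edgeR adjusted p = 0.975). A list of 25 genes held Cul3 and BTB-domain genes, and also Rbx1, Nedd8, Cand1, Tfrc and Meis1. Its median log2 fold change was 0.02, with 19 above 0 and 6 below. The edgeR test and DESeq2 called 0 of the 25, and 0 had an unadjusted p under 0.05, beside 5.26% of all tested genes. Btbd3 and Kbtbd2 had the smallest p, with log2 fold changes of 0.11 and 0.10 (edgeR adjusted p = 0.956 for both).

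Gcg, the precursor of glucagon-like peptide-1, had 3 counts in KO replicate 1 and 0 in the other 5 libraries. Dpp4, the peptidase that inactivates the hormone, had a log2 fold change of 0.04 (SE 0.24, edgeR adjusted p = 0.998). The 15 tested genes of the peptide's system had a median of 0.001, with 8 above 0 and 7 below. The edgeR test called 0 (1 had an unadjusted p under 0.05, beside 5.26% of all tested genes), while DESeq2 called Sctr, the secretin receptor, at an adjusted p of 0.0149. Its edgeR adjusted p was 0.881. Sctr had 69 counts over the libraries labelled KO and 0 over those labelled WT, at least 23.4-fold higher in the libraries labelled KO against a floor of 3 counts over the group. Of the 16935 genes under 1 CPM with any count, 15.1% were likewise at 0 in all WT libraries and above 0 in at least 1 KO library. Adcy5, an adenylate cyclase, had a log2 fold change of -0.13 (SE 0.064, edgeR adjusted p = 0.944).

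Other axonemal dyneins, listed together with the assembly factors Dnaaf1 and Dnaaf3, were split evenly around 0. Their median over 20 tested was -0.02, with 10 above 0 and 10 below. The edgeR test and DESeq2 called 0 of the 20, and 1 had an unadjusted p under 0.05, beside 5.26% of all tested genes. Dnah10 stood at 1.54 ± 0.236 CPM in the libraries labelled KO and 2.38 ± 0.468 CPM in those labelled WT (SD, n = 3 each; log2 fold change -0.63, SE 0.24, edgeR adjusted p = 0.917), and Dnaaf1, a dynein assembly factor, had a log2 fold change of -0.93 (SE 0.50, edgeR adjusted p = 0.956). Foxj1, the regulator of motile cilia, was at 4.16 ± 1.28 CPM in the libraries labelled KO and 3.62 ± 1.48 CPM in those labelled WT (edgeR adjusted p = 0.975). The 7 ependymal markers, which include Rsph1 and Foxj1, summed to 8.07 to 13.0 CPM in the libraries labelled KO and 9.08 to 13.8 CPM in those labelled WT, with 2 higher and 5 lower.

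The 4 meningeal markers and the 3 endothelial markers, whose sums by library stand beside Glo1 and Btbd9, all had lower means in the libraries labelled KO. Choroid plexus markers summed to 4.19 to 23.8 CPM in the libraries labelled KO and 5.54 to 50.3 CPM in those labelled WT, with all 6 means lower. The 4 striatal markers, also lower in mean, summed to 64.4 to 73.8 CPM in the libraries labelled KO and 55.9 to 129 CPM in those labelled WT. The edgeR test called 0 of these 17 markers (4 meningeal and 1 endothelial had an unadjusted p under 0.05), and DESeq2 called 3 of the meningeal ones. Among the remaining lists, the 4 oligodendrocyte markers had higher means, summing to 3833 to 5865 CPM in the libraries labelled KO and 3405 to 4104 CPM in those labelled WT. Of these 4, 3 had an unadjusted p under 0.05, and the median log2 fold change of the 4 was 0.36. An unadjusted p under 0.05 was also found for 2 of 7 cortical excitatory neuron markers, 1 of 7 ependymal markers and 1 of 5 astrocyte markers. It was found for 0 of 5 interneuron and 0 of 3 microglial markers. Of the 7 excitatory neuron markers, 3 were higher and 4 lower. All 3 KO libraries were above all 3 WT libraries for 3 of the 7, beside 5.84% of all tested genes. Neither tool called any oligodendrocyte, excitatory neuron, ependymal, astrocyte, interneuron or microglial marker. No marker of these lists was at 0 in every library. Their part in the levels of Glo1, Btbd9, Dnah8 and Glp1r was not tested.

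The genes whose log2 CPM over the 6 libraries was most like that of each gene lay outside the window of 1 Mb around the segment. For Glo1 these were Afap1l2, Angptl2, Vps52, Rbpms and A530058N18Rik, with a Pearson r of 0.983 to 0.996, of which Vps52 lies on chromosome 17 at 33955812 to 33967035. For Dnah8 they were Ccdc25, Angptl2, Ecscr, Slc3a2 and Hrc (r 0.980 to 0.993), so Angptl2 was in both sets. For Btbd9 they were Stab1, Nostrin, Klhl41, Slc2a1 and Cpxm2 (r 0.987 to 0.996), and for Glp1r Topbp1, Zfp472, Impdh1, Nckipsd and Maats1 (r 0.968 to 0.985), of which Zfp472 lies on chromosome 17 at 32965814 to 32979233. Each set was the top 5 of the 15596 genes averaging 1 CPM or more, taken over only 6 libraries, so such high values are a description.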

How the data were processed

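Libraries of cingulate cortex RNA, 3 labelled KO and 3 labelled WT, were made, per the labels' protocols, from oligo(dT)-selected RNA with dUTP strand marking and sequenced in pairs. The submitters' processing notes name cutadapt 1.9, HISAT2 2.2.1 and StringTie 2.1.6, and DESeq2 and edgeR without a version. The sources used here do not name the genome build, the counter or whether it used strand. The authors deposited whole-number counts per gene, not normalized. The authors also deposited a transcript list with FPKM values, a ratio (fold) of group means, its log2 value, p-values and q-values. The start and end of the 6 listed transcripts used here matched GENCODE M21 (GRCm38), which gave symbols and positions.

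Counts were fitted in R 4.3.3 with edgeR 4.0.16 (filterByExpr, TMM factors of 0.993 to 1.01, quasi-likelihood F-test, libraries labelled KO over WT, no covariate, Benjamini-Hochberg adjusted p under 0.05 over 20587 genes). CPM uses TMM-scaled library sizes, and an SE is the log2 fold change divided by the root of F. Alternatives were DESeq2 1.42.0, limma 3.58.1 (voom), other scaling factors and filters, a replicate block, and each library left out. Counts of Glo1 and Gm13443 were also summed, a choice made after seeing the data. Copies were sought among transcripts with blastn 2.17.0 (at least 95% identity over 150 bases). Beside Gm13443 and overlapping genes, Glo1 matched 7 genes elsewhere over 159 to 170 bases. The sequence shared by Glo1 and Gm13443 is not reported here. The pipeline was tested on simulated data. The genes, lists and windows were chosen with earlier results of these data known. Named were the 4 genes, the 3 nearest genes of at least 1 CPM on each side and those inside, the 3 widest-ranging window genes, direct partners, the 2 smallest p of each list and the 5 most alike genes. Replicates are only labelled as such, so every p-value reflects only how far these samples spread, possibly a technical spread.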

Additional observations from a re-analysis of the deposited data

How the results depend on the processing

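The log2 fold changes of Btbd9 (-0.33 to -0.14) and Glo1 (-0.64 to -0.38) kept their sign over all alternatives, and Dnah8 (-3.07 to -1.19) and Glp1r (0.021 to 1.65) did so with KO replicate 3 setting their size. All 4 ranges are those of leaving out 1 library. Genes called over the whole comparison were 8 higher and 24 lower with DESeq2, 0 to 1 higher and 0 to 2 lower when a library was left out, and 0 otherwise. Leaving out KO replicate 1 or 3 gave 2 lower, WT replicate 2 gave 1 higher and WT replicate 3 gave 1 of each. Window genes called lower were 0 to 1 when a library was left out (AC165951.1 without KO replicate 3), and DESeq2 called 1 gene of the GLP-1 list. The glutathione median ran from 0.0078 to 0.079 with a library left out, and that of the CUL3 list from 0.0099 to 0.048. The medians for methylglyoxal handling (-0.024 to 0.069), axonemal dyneins (-0.12 to 0.039) and the GLP-1 list (-0.016 to 0.0073) changed sign. The GLP-1 median also did so over the other settings (-0.0081 to 0.012). Signs turned when a library was left out for Dpp4 (-0.22 to 0.19), Foxj1 (-0.011 to 0.58), Hagh (-0.065 to 0.043), Mdga1 (-0.033 to 0.33) and Rsph1 (-0.52 to 0.14), and for Hagh with library totals (0.0025). The cause was not tested. The replicate numbers gave no clear sign of pairing the samples. Deviations of same-numbered libraries correlated at -0.16, 0.15 and 0.10, and only KO replicate 2 was most like its own number. With so few libraries these values cannot exclude a pairing. With the replicate block, 0 genes were called and Glo1, Dnah8 and Glp1r had log2 fold changes of -0.51, -2.11 and 0.76. Depth limits Dnah8, Glp1r and the noncoding genes most.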
